A study of Mus musculus with 3 samples.

Results

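The 10 genes described here encode the sensors, the adaptor and the caspases of inflammasomes, a pore-forming protein that acts after them, and a secreted antagonist of interleukin-1. They are Nlrp3, Nlrc4, Aim2, Naip2, Naip5, Pycard, Casp1, Casp4, Gsdmd and Il1rn. The genes were taken by symbol, as probe sets annotated with that gene alone. All 10 were found, each with 1 probe set, among 19938 genes on an Affymetrix whole-transcript array of mouse genes.

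RNA came from sorted CD11c(high) CD11b+ dendritic cells of mouse spleen, with 1 array for each of 3 groups. The RBPJ-null Esam(lo) cells came from RBPJflox/flox CD11c-Cre mice, in which the floxed Rbpj gene is deleted in cells that express CD11c, and were GFP(hi). The control Esam(hi) cells, GFP(lo), and the control Esam(lo) cells, GFP(hi), came from Cre-negative RBPJflox/flox littermates. All mice carried the Cx3cr1-GFP reporter, and lymphoid and erythroid cells were removed on magnetic columns before the sort. Each array holds RNA from the pooled spleens of 2 to 3 mice, so there is no replicate error, no test and no p-value, and every difference compares arrays. The labels state no age for the mice. RBPJ is the nuclear partner of Notch receptors, and the study asks how that pathway shapes splenic dendritic cells.

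An inflammasome is a protein platform that assembles in the cytosol when a sensor meets a microbial product or a sign of damage. The adaptor ASC links many sensors to caspase-1, which matures interleukin-1β and interleukin-18 and cuts gasdermin D, whose fragment forms pores and can kill the cell. Mouse caspase-11, the product of Casp4, responds to cytosolic lipopolysaccharide and cuts gasdermin D directly. In the spleen, dendritic cells, monocytes and neutrophils all use this machinery.

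Of the 5 genes that were at least 2-fold apart between the control subsets, Naip2 and Naip5 lie next to each other on chromosome 13 and Casp1 and Casp4 next to each other on chromosome 9, going by the order of protein-coding genes in RefSeq. The promoters of these 2 pairs and of Il1rn are shown because these 5 genes passed 2-fold on the deposited values. Some of these calls depend on the scaling, as given below. Each sequence is the 250 bases before the annotated start of transcription in RefSeq (build GRCm38.p6), on the strand of the gene. The Naip2 window is chr13:100202123-100202372 on the minus strand and the Naip5 window chr13:100247337-100247586 on the minus strand. Capitals mark the stretch over which the 2 promoters align, 83 bases with 77 identical (92.8%) and no gap.
Naip2: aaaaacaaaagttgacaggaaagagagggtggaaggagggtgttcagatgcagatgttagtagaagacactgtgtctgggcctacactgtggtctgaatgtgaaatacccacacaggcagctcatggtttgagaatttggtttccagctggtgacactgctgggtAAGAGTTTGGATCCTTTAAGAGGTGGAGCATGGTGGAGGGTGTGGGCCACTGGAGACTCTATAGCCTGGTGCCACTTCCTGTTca
Naip5: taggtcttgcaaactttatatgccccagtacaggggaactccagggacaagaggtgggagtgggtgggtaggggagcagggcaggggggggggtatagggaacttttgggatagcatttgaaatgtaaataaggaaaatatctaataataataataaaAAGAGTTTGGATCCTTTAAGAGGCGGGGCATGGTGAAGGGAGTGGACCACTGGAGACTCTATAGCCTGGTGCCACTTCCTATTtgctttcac

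The aligned stretch runs from position -85 to -3 in Naip2 and from -92 to -10 in Naip5, counted back from the start of transcription. Naip genes are close paralogs, so probes may share signal between them and the separate Naip values are uncertain.

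The letters of 4 short motifs were searched in the same windows on both strands, and capitals mark the matches in the remaining promoters. The Casp1 window is chr9:5298267-5298516, the Casp4 window chr9:5308599-5308848 and the Il1rn window chr2:24336610-24336859, all on the plus strand. For Casp4 and Il1rn, which have 2 and 3 starts in RefSeq, the most upstream start is shown. The other Il1rn windows begin at chr2:24345041 and chr2:24345121. Which start these cells use, and which gives the secreted protein, was not tested.
Casp1: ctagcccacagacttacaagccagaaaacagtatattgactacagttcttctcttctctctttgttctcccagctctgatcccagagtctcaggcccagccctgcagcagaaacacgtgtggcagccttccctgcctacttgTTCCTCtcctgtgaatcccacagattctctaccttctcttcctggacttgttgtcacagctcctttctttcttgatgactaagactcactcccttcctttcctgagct
Casp4: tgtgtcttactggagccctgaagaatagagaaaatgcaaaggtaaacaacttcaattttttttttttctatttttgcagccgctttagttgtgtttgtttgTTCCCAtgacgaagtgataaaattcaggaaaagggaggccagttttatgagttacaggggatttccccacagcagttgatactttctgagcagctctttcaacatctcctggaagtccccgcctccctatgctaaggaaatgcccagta
Il1rn: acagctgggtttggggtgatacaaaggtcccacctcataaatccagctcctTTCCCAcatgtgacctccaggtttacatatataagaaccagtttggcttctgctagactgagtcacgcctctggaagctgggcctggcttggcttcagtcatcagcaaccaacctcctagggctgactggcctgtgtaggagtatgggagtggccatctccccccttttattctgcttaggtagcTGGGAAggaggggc

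The core of the RBPJ motif, TGGGAA, matched on the opposite strand, where it reads TTCCCA in the printed sequence, at -149 in Casp4 and -199 in Il1rn, and on the printed strand at -14 in Il1rn. It was found in 4 of the 9 genes with a promoter in the table (Casp4, Il1rn, Nlrc4 and Nlrp3) and, counted by windows, in 8 of the 13 windows of the 9 genes, against 21.6% of all 32851 promoter windows of this length. Several of the 13 windows belong to the same gene. The 2 windows of Casp4 hold the same match, as do 2 of the windows of Il1rn. The core of the PU.1 motif, GAGGAA, matched on the opposite strand at -108 in Casp1, and was found in 4 of the 9 genes (Aim2, Casp1, Nlrp3 and Pycard), or 4 of the 13 windows, against 23.3% of all windows. The interferon-stimulated response element, searched as GAAANNGAAA, and the kappa-B site, searched as GGGANNTTCC, matched in 0 of the 13 windows and in 2.98% and 1.21% of all windows. The matches in the printed promoters do not overlap each other. A match of this kind describes the letters and is not a binding site.

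On the arrays as a whole, a gene counts as above background when its log2 value exceeds the 95th percentile of that array's 1194 olfactory and vomeronasal receptors. That level was 6.87 on the RBPJ-null, 7.17 on the control Esam(hi) and 6.76 on the control Esam(lo) array. Itgax and Itgam, which encode CD11c and CD11b, and the dendritic cell genes Flt3 and Zbtb46 were above background on all 3 arrays. Rbpj itself read 10.04 on the RBPJ-null array and 9.85 on each control array, while a further probe set did not pass background on any array. Where these probes lie relative to the deleted exons is not known here, so Rbpj is no check of the label, and directions drawn from the array labelled RBPJ-null rest on that label. Esam, the sort marker, read 6.12 (below background) on the RBPJ-null array, 7.79 on the control Esam(hi) array and 6.57 (below background) on the control Esam(lo) array. Most genes tested were dimmer on the control Esam(hi) array. Their median difference was -0.32 against the control Esam(lo) array, and it became 0.03 once the trend of the difference on level was removed. With that removal, 230 genes were at least 2-fold higher and 378 lower, in place of 75 and 1066 on the deposited values. For the RBPJ-null against the control Esam(hi) array these counts were 449 and 289 with the trend removed, in place of 1203 and 110.

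The first question is how the inflammasome genes differ between the 2 subsets of control mice. All 10 had lower values in control Esam(hi) cells than in control Esam(lo) cells, and 5 were at least 2-fold lower: Naip2, Casp4, Casp1, Il1rn and Naip5. Of all 9196 genes tested, 11.6% were at least 2-fold lower and 0.816% higher. None of the 10 was higher. The counts rest on measured values. Of the 1066 genes lower, 113 were below background in control Esam(hi) cells with a lower bound under 2-fold, and none of the 5 inflammasome genes is among these. The median difference of the 10 genes was -1.02 on the log2 scale, where that of all genes tested was -0.32. The 10 genes were chosen with earlier results of these data known. Their counts and medians beside those of all genes, here and below, therefore only describe the set. Naip2 and Naip5, whose probes may share signal, may not be separate counts.

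**Figure D1:**
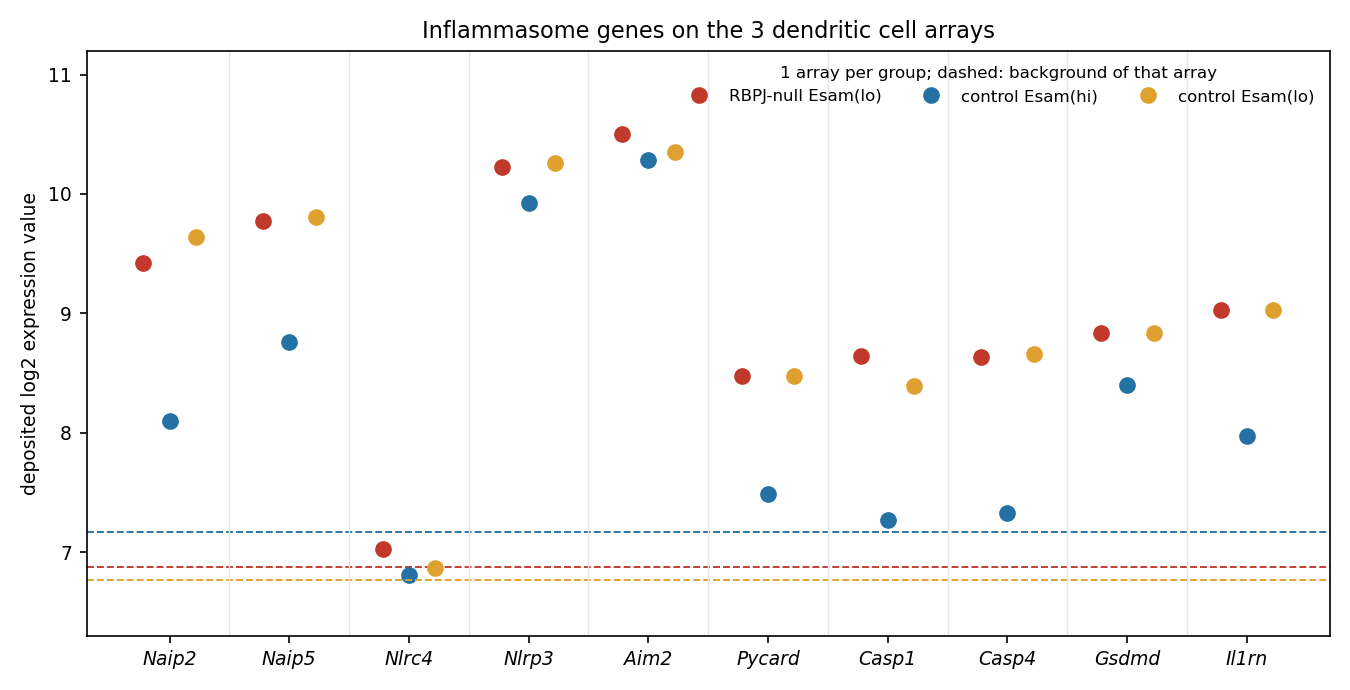
Deposited log2 expression values (vertical axis) of the 10 inflammasome genes (horizontal axis) on the RBPJ-null Esam(lo), control Esam(hi) and control Esam(lo) arrays, 1 point per array, with each array's background as a dashed line. The control Esam(hi) point is the lowest of the 3 for every gene, by most for Naip2 (8.09, against 9.64 on the control Esam(lo) array), while the points of both Esam(lo) arrays differ by at most 0.24.

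The NAIP proteins are the receptors that bind bacterial ligands for the NLRC4 inflammasome. In mice NAIP2 binds the inner rod protein of type III secretion systems and NAIP5 binds flagellin. Naip2 (probe set 10411595) read 9.42 on the RBPJ-null array, 8.09 on the control Esam(hi) array and 9.64 on the control Esam(lo) array. It was 2.92-fold lower in Esam(hi) than in Esam(lo) control cells, the widest gap among the 10 genes, and 97.5% of all genes tested had a less negative or a positive difference. Naip5 (10411611) read 9.77, 8.76 and 9.81 on the RBPJ-null, control Esam(hi) and control Esam(lo) arrays, and was 2.07-fold lower in control Esam(hi) cells. For both genes the Esam(hi) array stood apart and both Esam(lo) arrays were close. Naip2 stayed past 2-fold with the arrays quantile normalized (difference -1.29) and with the level trend removed (-1.05). Naip5 did not (-0.73 and -0.54).

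Nlrc4 encodes the protein that NAIPs recruit to build the platform. Its probe set (10452879) read 7.03 on the RBPJ-null array, 6.81 on the control Esam(hi) array and 6.86 on the control Esam(lo) array. It was the one gene of the 10 below background on an array, the control Esam(hi) array, and it lay 0.15 and 0.10 above background on the RBPJ-null and control Esam(lo) arrays. No fold is given for it.

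The sensors with a pyrin domain differed little. Nlrp3, which responds to potassium loss and many other signs of damage, read 10.23, 9.92 and 10.26 on the RBPJ-null, control Esam(hi) and control Esam(lo) arrays. Aim2, which binds DNA in the cytosol, read 10.50, 10.29 and 10.35 in the same order. The control difference, Esam(hi) minus Esam(lo), was -0.33 for Nlrp3 and -0.06 for Aim2. Neither sign was stable: with the level trend removed the differences were 0.14 and 0.39, and with quantile normalization -0.02 and 0.22. Both genes were well above background on all 3 arrays.

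Pycard encodes ASC, the adaptor that joins pyrin-domain sensors to caspase-1. It read 8.47 on the RBPJ-null array, 7.49 on the control Esam(hi) array and 8.47 on the control Esam(lo) array, exactly equal on both Esam(lo) arrays. It fell just short of the rule between the controls, with a difference of -0.99 (1.98-fold lower in Esam(hi) cells), and it passed 2-fold when the arrays were centred on their medians (-1.10). With quantile normalization and with the level trend removed it fell further short, at -0.87 and -0.66.

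The inflammatory caspases lay lower in Esam(hi) cells together. Casp1 (10582985) read 8.64, 7.27 and 8.40 on the RBPJ-null, control Esam(hi) and control Esam(lo) arrays. Casp4 (10582997), known in mice as caspase-11, read 8.63, 7.33 and 8.66 in that order. On the control Esam(hi) array both were close to background, by 0.10 for Casp1 and 0.16 for Casp4. Casp1 was 2.18-fold lower and Casp4 2.52-fold lower in control Esam(hi) than in control Esam(lo) cells. With the level trend removed Casp4 was still just past 2-fold and Casp1 was not (-0.86), and both passed with quantile normalization (-1.23 for Casp4 and -1.05 for Casp1).

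Gsdmd encodes the pore-former that these caspases cut. It read 8.84, 8.40 and 8.83 on the RBPJ-null, control Esam(hi) and control Esam(lo) arrays, so its difference was smaller than those of Casp1 and Casp4. Its control difference of -0.43 was near the trend of genes of its level (-0.46), and it turned to 0.03 once that trend was removed.

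Il1rn encodes the receptor antagonist, a secreted protein that occupies the interleukin-1 receptor without signalling. It read 9.03 on the RBPJ-null array, 7.98 on the control Esam(hi) array and 9.03 on the control Esam(lo) array. The values of both Esam(lo) arrays were exactly equal, and the Esam(hi) array stood 2.07-fold lower. The difference of -1.05 became -0.83 with quantile normalization and -0.61 with the level trend removed, both short of 2-fold.

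Scaling therefore decides some of the 5 calls. With quantile normalization 3 of the 10 genes were at least 2-fold lower in control Esam(hi) cells (Naip2, Casp4 and Casp1), where 6.85% of all genes were. With the level trend removed 2 were (Naip2 and Casp4), where 4.11% of all genes were. The signs of Naip2, Naip5, Pycard, Casp1, Casp4 and Il1rn held under the 3 other scalings tried, and those of Nlrp3, Aim2, Gsdmd and Nlrc4 did not.

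**Figure D2:**
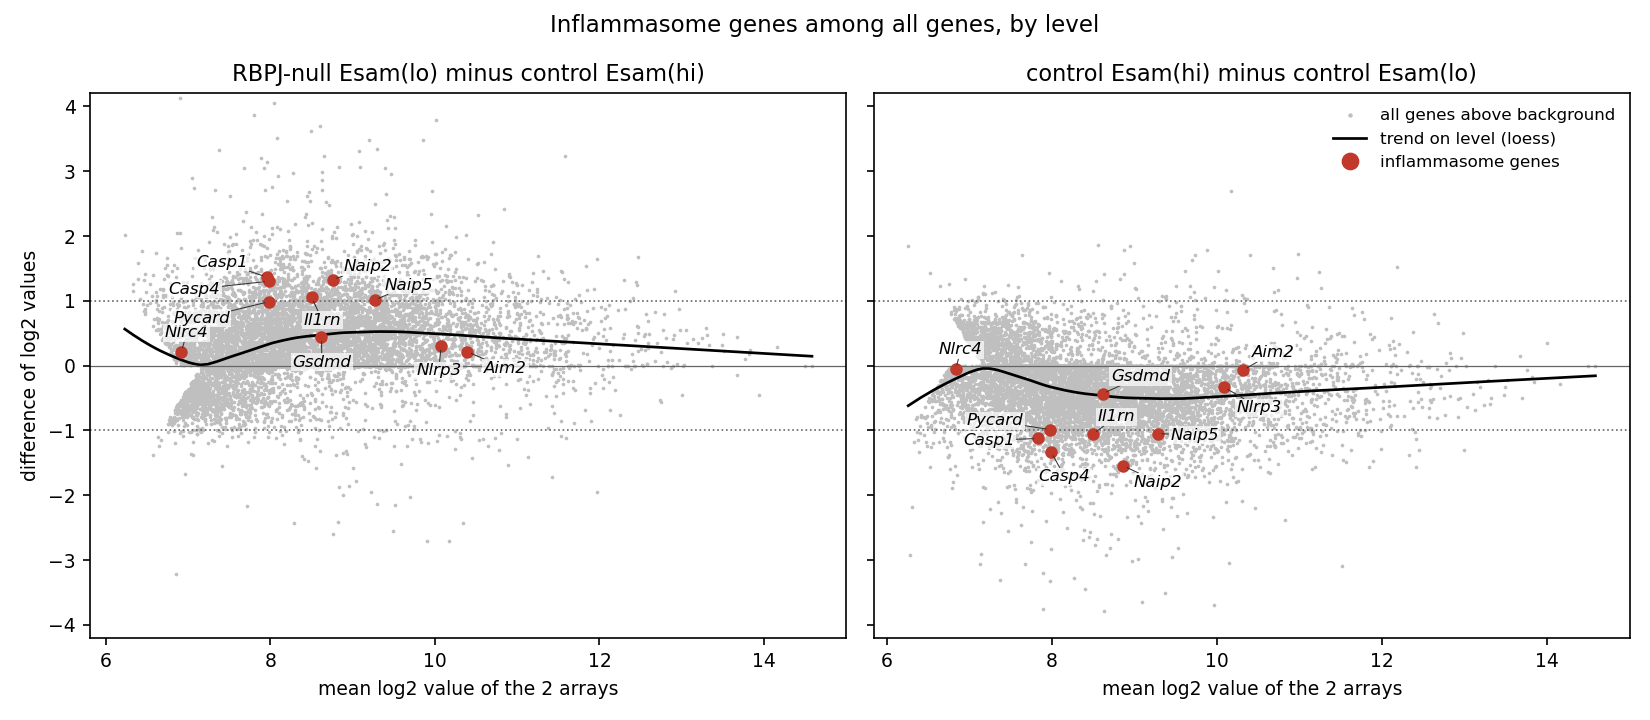
Difference of log2 values (vertical axis) against the mean log2 value of the pair of arrays (horizontal axis) for all genes above background (grey), with the loess trend (black line), the 10 inflammasome genes (red) and 2-fold as dotted lines. Between the controls, Naip2, Casp4, Casp1, Il1rn and Naip5 lie below the lower dotted line and below the trend, while Gsdmd, at -0.43, lies almost on it.

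The second question is what the loss of RBPJ goes with in cells of the same Esam(lo) phenotype. None of the 10 inflammasome genes was 2-fold apart between the RBPJ-null and the control Esam(lo) arrays, where 0.0749% of 9348 genes tested were at least 2-fold higher and 0.193% lower. The differences ran from -0.22 for Naip2 to 0.24 for Casp1, with a median of 0 as for all genes. Both are small in log2 units, 1.16-fold for Naip2 and 1.18-fold for Casp1. They lay toward opposite ends of all genes: 95.9% of genes had a higher difference than Naip2 and 3.94% a higher one than Casp1. Nlrc4 (0.16) and Aim2 (0.15) had higher values on the RBPJ-null array, Nlrp3, Casp4 and Naip5 each differed by -0.03, and Gsdmd by 0.01, a sign that turned with quantile normalization. Pycard and Il1rn were tied. Exact ties occurred in 40.1% of genes for this pair of arrays and can arise when probes are condensed by median polish over few arrays, so a tie is no evidence of equal levels.

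The last comparison sets the RBPJ-null cells against the control Esam(hi) cells. It shares the control Esam(hi) array with the first comparison and the RBPJ-null array with the second, so it is not independent of either. All 10 genes had higher values on the RBPJ-null array, 5 of them at least 2-fold: Casp1 (2.58-fold), Naip2 (2.51-fold), Casp4 (2.47-fold), Il1rn (2.07-fold) and Naip5 (2.02-fold). None was lower. Of 9123 genes tested, 13.2% were at least 2-fold higher and 1.21% lower, and the median difference was 0.32 over all genes and 1.00 over the 10. Pycard was again just short, at 0.99, and stood at 0.84 with quantile normalization and 0.65 with the level trend removed.

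With quantile normalization 3 of the 10 were at least 2-fold higher on the RBPJ-null array (Casp1, Casp4 and Naip2), beside 7.73% of all genes. With the level trend removed only Casp1 was (1.04), beside 4.92% of all genes, and Casp4 stood at 0.97 and Naip2 at 0.83. Nlrp3, Aim2 and Gsdmd were higher on the deposited values by 0.30, 0.21 and 0.44, while with the trend removed their differences were -0.18, -0.25 and -0.04.

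**Figure D3:**
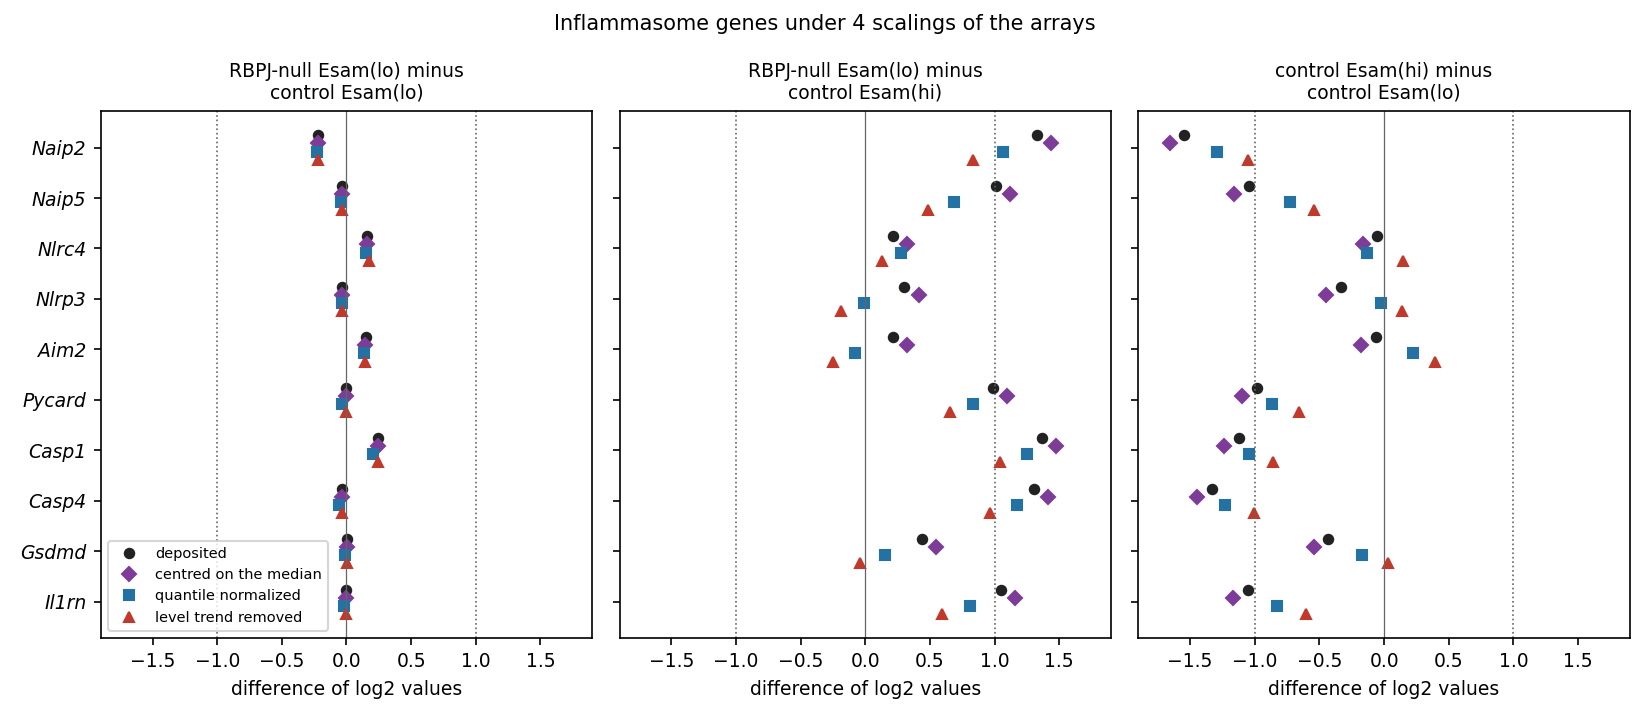
Differences of log2 values (horizontal axes) of the 10 inflammasome genes (rows) in the 3 comparisons, on the deposited values, with arrays centred on their medians, with quantile normalization and with the level trend removed; dotted lines mark 2-fold. The left panel runs from -0.23 to 0.24 over all genes and scalings shown, and in the right panel Naip2 and Casp4 stay at or beyond -1 under all 4.

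For the 5 genes past 2-fold between the controls, the position of the RBPJ-null array was read on a scale that runs from 0, the value in control Esam(lo) cells, to 1, the value in control Esam(hi) cells. It was -0.22 for Casp1, 0 for Il1rn, 0.02 for Casp4, 0.03 for Naip5 and 0.14 for Naip2, with a median of 0.02. The 5 genes were chosen on the same control arrays, and the 0 of Il1rn is the exact tie described above, so the scale only restates the values.

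Other parts of the pathway were read from 5 lists of genes. Of 21 further sensors and related genes on the array, 11 were above background. Their median control difference was -0.13, and none was at least 2-fold higher. This list mixes inflammasome sensors with genes such as Sting1 and Nlrc5, so its median does not describe inflammasome sensors alone. Beside 11.6% of all genes tested, 2 of the 11 were at least 2-fold lower in control Esam(hi) than in control Esam(lo) cells. These were Sting1, the receptor for the DNA-derived messenger cGAMP, and Naip6, the next Naip gene along the chromosome. Sting1 read 10.72 on the RBPJ-null array, 9.08 on the control Esam(hi) array and 10.49 on the control Esam(lo) array. Naip6 read 9.38, 8.18 and 9.24 in that order. Its value was 0.13 higher on the RBPJ-null than on the control Esam(lo) array, where Naip2 and Naip5 had differences of -0.22 and -0.03. The list's median turned positive with quantile normalization (0.13) and with the trend removed (0.27), while Sting1 alone was past 2-fold with quantile normalization and neither gene with the trend removed. Against the control Esam(hi) array, Sting1 (3.13-fold) and Naip6 (2.29-fold) were at least 2-fold higher on the RBPJ-null array. Under both other scalings Sting1 kept that call, Naip6 lost it (0.92 with quantile normalization and 0.70 with the trend removed), and Nlrc5 became at least 2-fold lower (-1.02 and -1.16). Nlrc5, a regulator of MHC class I genes, is named after its values were seen. The list's median there was 0.07, and -0.19 and -0.31 with quantile normalization and the trend removed.

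Among other caspases and death adaptors, 8 of 12 on the array were above background and 1 was at least 2-fold lower in control Esam(hi) cells, a share near the 11.6% of all genes. This was Casp6, an apoptotic caspase, at 8.55 on the RBPJ-null array, 6.76 (below background) on the control Esam(hi) array and 8.64 on the control Esam(lo) array, at least 2.78-fold lower in control Esam(hi) cells. Casp8, which starts death-receptor apoptosis, was 2.05-fold higher on the RBPJ-null than on the control Esam(hi) array (10.89 against 9.85). It fell short of 2-fold there with quantile normalization (0.73) and with the trend removed (0.57). Between the controls its difference was -0.97. Casp12 and Ninj1 are named outside the naming rule, after their values were seen. Casp12, the gene next to Casp4, was below background on all 3 arrays, with equal values of 4.40. The only gene above background of 8 in the gasdermin list was Ninj1, which ruptures membranes of dying cells, with a control difference of -0.78.

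Of 21 interleukin-1 family cytokines, receptors and signalling genes on the array 11 were above background, with none at least 2-fold higher in control Esam(hi) cells. The median control difference was -0.30, and -0.20 with quantile normalization and -0.12 with the trend removed. Beside 11.6% of all genes tested, 2 of the 11 were at least 2-fold lower in control Esam(hi) cells. Both are signalling genes: Myd88, the adaptor of the interleukin-1 and Toll-like receptors, read 10.59 on the RBPJ-null, 9.42 on the control Esam(hi) and 10.94 on the control Esam(lo) array. Irak3, a brake on the same pathway, read 8.89, 7.36 and 8.89. Both stayed past 2-fold between the controls with the trend removed (-1.05 and -1.15). Against the control Esam(hi) array Myd88 was 2.25-fold higher on the RBPJ-null array, a call lost under both other scalings (0.84 and 0.68), and Irak3 was 2.87-fold higher. Il1r2 of this list and the cytokines that caspase-1 matures are named outside the naming rule, after their values were seen. Il1r2 ran the other way, at 11.87 on the RBPJ-null, 12.63 on the control Esam(hi) and 12.11 on the control Esam(lo) array. Its difference on the RBPJ-null against the control Esam(hi) array was -0.76. It became at least 2-fold lower there with quantile normalization (-1.07) and with the trend removed (-1.08). Il1b read 12.80, 12.31 and 12.84 and Il18 read 7.52, 7.29 and 7.52 on the RBPJ-null, control Esam(hi) and control Esam(lo) arrays.

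In the list of triggers and regulators 31 genes were above background. By measured values 12 were lower by 2-fold or more in control Esam(hi) cells, beside 11.6% of all genes, with none higher (median -0.69). Of the 12, 11 are so by their bound as well, Cd36 being the exception. With quantile normalization 8 were lower, beside 6.85% of all genes, and with the trend removed 6, beside 4.11%. Against the control Esam(hi) array 11 were at least 2-fold higher on the RBPJ-null array, beside 13.2% of all genes, and none lower (median 0.75). Of these 11, 10 are so by their bound as well. Against the control Esam(lo) array none was 2-fold apart, where 0.0749% of all genes were higher and 0.193% lower. Ly96 and Cd14 encode parts of the lipopolysaccharide receptor. Ly96, encoding MD-2, read 9.44 on the RBPJ-null array, 6.40 (below background) on the control Esam(hi) array and 8.86 on the control Esam(lo) array, at least 3.24-fold lower in Esam(hi) than in Esam(lo) control cells. Cd14 read 8.97, 7.01 (below background) and 8.97, at least 3.48-fold lower. Tlr2, a receptor for bacterial lipoproteins, was 2.82-fold lower in control Esam(hi) cells, a call lost with the trend removed (-0.99). Irf8, a transcription factor of dendritic cells and monocytes, was 3.27-fold lower. Nfe2l2, the regulator of the oxidant response, was 3.14-fold lower. The scavenger receptor gene Cd36, below background on the control Esam(hi) array, was at least 1.44-fold lower, so its bound does not reach 2-fold.

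**Figure D4:**
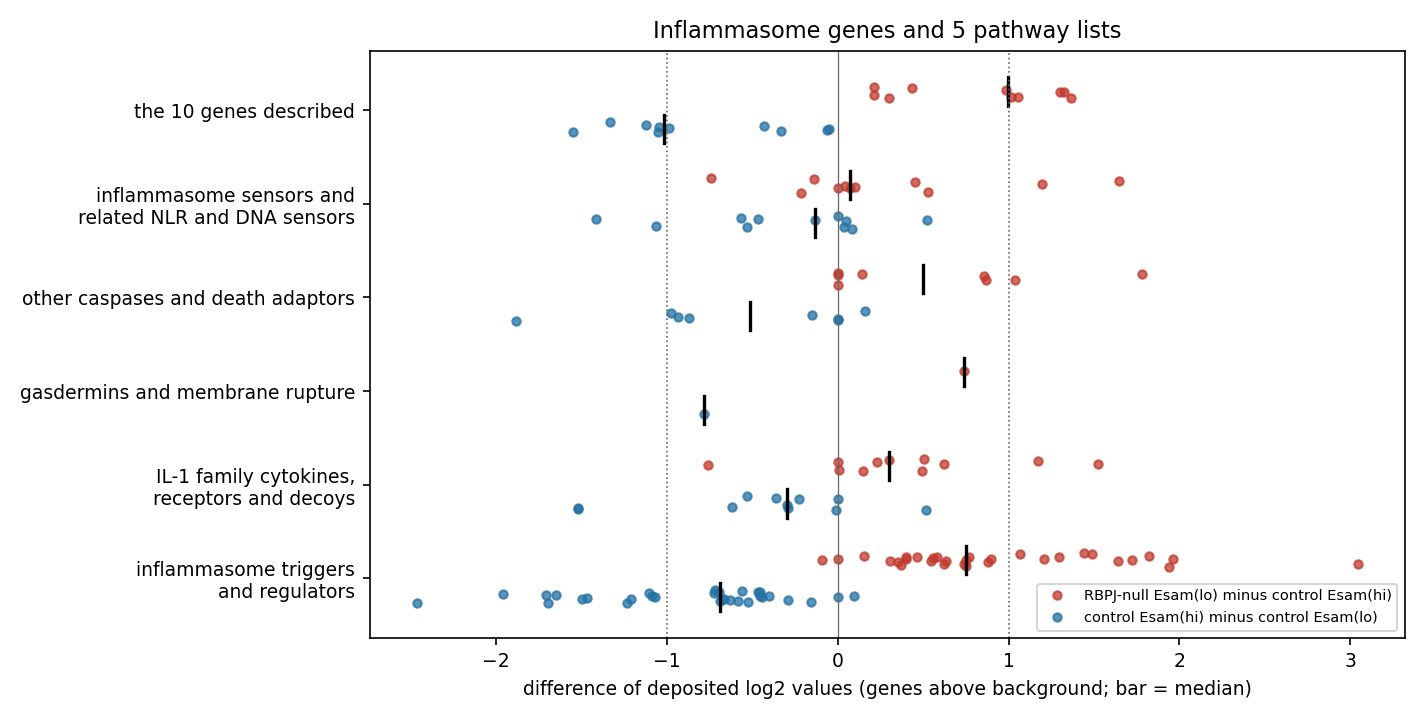
Differences of deposited log2 values (horizontal axis) of the genes above background in the 10 inflammasome genes and in 5 pathway lists (rows), for RBPJ-null Esam(lo) minus control Esam(hi) and for control Esam(hi) minus control Esam(lo); short bars are medians and dotted lines mark 2-fold. The bars of the 10 genes lie at 1.00 and -1.02 and those of the triggers and regulators at 0.75 and -0.69. Those of the mixed list of further sensors and related genes lie at 0.07 and -0.13.

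Markers of monocytes, and some of neutrophils, were also lower in control Esam(hi) cells. Of 9 classical monocyte markers 8 were at least 2-fold lower in control Esam(hi) than in control Esam(lo) cells, and their mean log2 level was 10.15 on the RBPJ-null array, 7.68 on the control Esam(hi) array and 10.06 on the control Esam(lo) array. Cd14 is in this list too. All 9 were above background on both Esam(lo) arrays and 5 on the control Esam(hi) array. Of 12 neutrophil markers above background 7 were at least 2-fold lower in control Esam(hi) cells, with mean levels over the 13 on the array of 9.43, 8.53 and 9.30, and Cxcr2 was below background on all 3. The neutrophil markers did not all run one way: Mpo (0.96), Mmp9 (0.76) and Elane (0.35), of which Mpo and Elane encode granule enzymes of early neutrophils, had higher values in control Esam(hi) cells. With quantile normalization 4 neutrophil markers were lower and 1 higher, and with the trend removed 3 were lower and 1 higher, the higher one being Mpo (1.24 and 1.45). Patrolling monocyte markers were lower for 5 of 8, of which Cd36 is not so by its bound, and red pulp macrophage markers for 2 of 7 above background. The share of all genes was 11.6%. Lists of other cells held lower markers too: 2 of 5 above background for CD8+ dendritic cells and 2 of 11 for CD11b+ and classical dendritic cells. For plasmacytoid dendritic cells it was 1 of 3 and for natural killer cells 1 of 1, while for B cells it was 0 of 2 and for T cells 0 of 1. None in these lists was at least 2-fold higher on the deposited values. With quantile normalization, and also with the trend removed, 1 marker was at least 2-fold higher in each of the CD8+ dendritic cell, CD11b+ and classical dendritic cell, and B cell lists. Between the RBPJ-null and the control Esam(lo) arrays no marker of any of these lists was 2-fold apart. The part of these cells in the inflammasome values was not tested, and fewer cells of a type and less RNA per cell cannot be told apart in such bulk samples.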

How the data were processed

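Whole-transcript Affymetrix arrays measured RNA of 3 sorted dendritic cell populations, 1 array each. The deposited values are log2 expression values made with RMA in Affymetrix Expression Console, per the submitters' processing notes; their versions are not stated there. The quartiles of the 3 arrays differ, so differences of scale remain in the values. RMA condenses probes by median polish, which over few arrays gives many exact ties.

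Of 35556 probe sets, 21789 are annotated with 1 gene, 1621 with several and 12146 with none. Probe sets with 1 gene were used, and a gene with several took its brightest on average. Entrez numbers were looked up in a RefSeq gene table of GRCm38.p6: the table held 21698 of them and lacked 91, and every symbol stayed as it was. For the array annotation no build is stated, and no probe coordinates are printed.

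Differences are between log2 values of 2 arrays. A gene was tested where the array with the higher value was above its background, or both where the values were equal. Genes at least 2-fold apart were counted, over all genes. Where the lower array was below background, the printed fold is a lower bound against that background; counts use the measured difference. The level trend is a loess curve (span 0.3) over the genes tested, in statsmodels 0.14.6. The other scalings were centring on array medians and quantile normalization over all probe sets. The counting was tested on simulated data, and a pass was required only without a simulated level trend or with the trend removed. Promoters were aligned locally with Biopython 1.88. Precision is limited by the number of arrays.

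The members and lists were chosen with earlier results of these data known. All 10 members are named, with up to 6 genes of each pathway list, those with the largest differences past 2-fold in any comparison; cell type lists give markers only.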

Additional observations from a re-analysis of the deposited data

How the results depend on the processing

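Of the 5 inflammasome genes at least 2-fold lower in control Esam(hi) than in control Esam(lo) cells, 3 remained with quantile normalization, 2 with the level trend removed and 0 at a 3-fold threshold. Of the 5 that were higher on the RBPJ-null than on the control Esam(hi) array, 3, 1 and 0 remained under these alternatives. A higher threshold counts fewer genes by construction; for the scalings the cause was not tested. No background filter, a filter at the 75th percentile of each array, median centring, a 1.5-fold threshold and the mean of a gene's probe sets left each count within 1.5 times its value. The count of 0 between the RBPJ-null and the control Esam(lo) arrays was 0 under all 8 alternatives. No gene past 2-fold changed sign under any of them. The median position of the RBPJ-null array was 0.05 with quantile normalization and 0.03 with the trend removed, against 0.02 on the deposited values. No paired analysis was possible because each group has 1 array, and no array could be left out. On the control Esam(hi) array Nlrc4 was below background and Casp1 and Casp4 lay just above it, which limits how well the differences of these genes are measured.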
